A study of Mus musculus with 15 samples.

Results

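The complement genes followed here are C1qa, C1qb, C1qbp, C2, C3, Cfb and Cfp, taken by gene symbol from the nanoString Mouse Immunology panel, 7 of its 561 genes. They were measured in RAW 264.7 cells, a macrophage line grown from a mouse tumor, in 5 groups of 3 samples (15 in all). All cultures received LPS, and all received EVs for 24 hours: either from sham mice or from irradiated mice (WBIR, whole body irradiation, at 2 Gy or 9 Gy), taken on day 3 or day 7. The EVs came from the plasma of young female C57BL/6J mice, so the receiving line and the donors were of different strains, and no culture without LPS or without EVs was analysed here. Nothing in the labels says that the 3 samples of a group were separate cultures, so p-values measure only the spread between these samples, which may be technical. Replicates 1 and 2 of 9 Gy day 3 have a day of 7 in another label, and their titles were followed. The number of EVs and the lysis buffer given in the labels differ from those in the study's methods.

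Complement is a cascade of plasma proteins that tags microbes and dying cells for uptake and opens pores in membranes. The classical pathway starts when C1q binds antibody or a surface and goes on through C4 and C2. The alternative pathway is carried by C3, factor B and properdin, and both pathways meet at C3. The liver makes most of the circulating proteins, but macrophages also make C1q, C2, C3, factor B and properdin, and factor B is a known target of LPS signaling in them. C1qbp differs from the rest. It encodes a mitochondrial matrix protein that can bind the globular heads of C1q.

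Total counts ranged from 43176 to 87899 in the 9 Gy day 3 group and from 453178 to 837995 in the other groups, so values of the 9 Gy day 3 group rest on the fewest counts. The lowest count in the table was 1, shared by 190 to 246 genes per sample in the 9 Gy day 3 group and by 5 to 11 genes elsewhere. Values are given as normalized counts, that is, counts scaled so that the geometric mean of 14 housekeeping genes is equal in all samples. Per 100000 counts, that geometric mean was 141 to 181 in the 9 Gy samples and 71.4 to 80 in the others (values under other scalings are given further on). A gene was tested with edgeR if its mean was at least 20 counts, which 269 of the 561 genes and 4 of the 7 complement genes reached (C1qbp, C3, Cfb and Cfp). Macrophage markers were well expressed: 8 of 10 on the panel had a median over 20 counts in each group with ordinary depth, the exceptions being Marco and Cd163. Their summed normalized count was 5804 to 9666 with sham EVs, 5918 to 8417 in the 2 Gy groups and 2675 to 4659 in the 9 Gy groups, and the part of this in the complement results was not tested. Of 9 T cell markers, 7 including Cd3e and Cd4 stayed under 20 counts in every sample, while Cd8a gave 74 to 175 and Lck 34 to 74 counts outside the 9 Gy day 3 group. The summed normalized count of these 9 genes was 194.1 to 227.6 with sham EVs, 202.1 to 261.3 in the 2 Gy groups and 98.34 to 152.9 in the 9 Gy groups, and its part in the complement results was not tested either. The study's methods give a fixed amount of mRNA per sample, and these values are scaled to housekeeping genes. They do not measure the number of cells or the RNA per cell.

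Cfb encodes factor B, a protease of the alternative pathway, and it was the complement gene that differed most between EV groups. Its normalized counts with sham EVs were 159, 139.8 and 191. EVs from 2 Gy mice gave 179, 142 and 159 at day 3 and 167, 137 and 142 at day 7. EVs from 9 Gy mice gave 21.8, 9.83 and 48.7 at day 3 and 18.1, 18.9 and 51.5 at day 7. Every 9 Gy sample was below every sham and 2 Gy sample, and in both 9 Gy groups replicate 3 was the highest. The raw counts behind these values were 3, 2 and 12 at day 3, with exact 95% Poisson intervals of 0.619 to 8.77, 0.242 to 7.22 and 6.2 to 21, and 30, 30 and 89 at day 7. Such intervals cover counting error only.

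**Figure D1:**
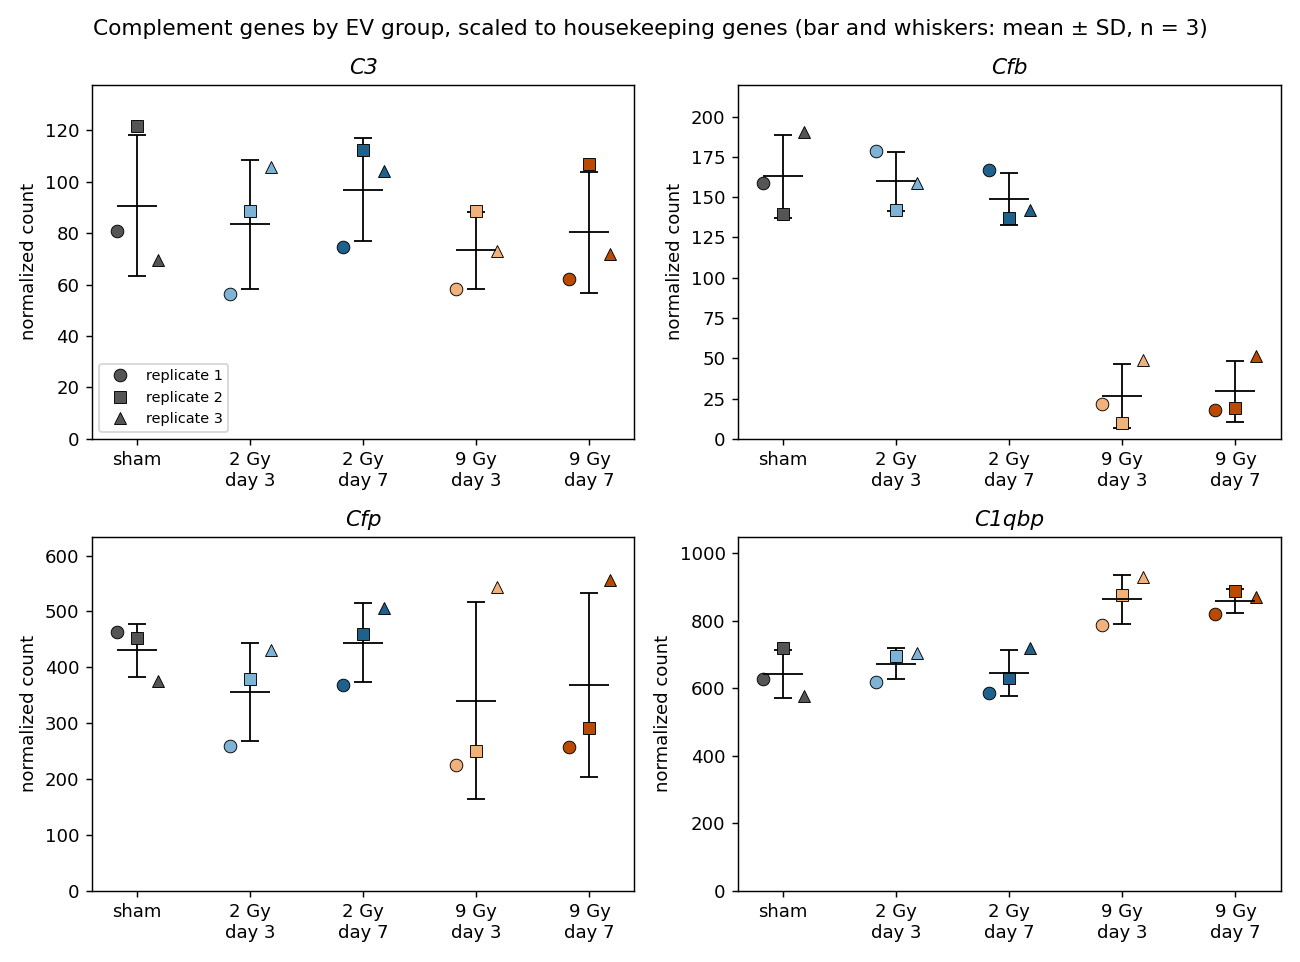
Normalized counts (vertical axes, from 0) of C3, Cfb, Cfp and C1qbp in the 5 EV groups, with symbols for the replicates and the mean ± SD of 3 samples as bars and whiskers. The 6 Cfb values of the 9 Gy groups lie between 9.83 and 51.5, below all others, the 6 C1qbp values of the same samples lie above all others, and the groups overlap for C3 and Cfp.

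Compared to sham EVs, EVs isolated 7 days after 9 Gy gave 5.49-fold less Cfb, or -2.46 on the log2 scale (standard error 0.36, adjusted p = 6.255e-05 in edgeR, n = 3 per group). EVs isolated 3 days after 9 Gy gave a log2 value of -2.51 (standard error 0.49, adjusted p = 7.328e-04 in edgeR). With both days pooled, 9 Gy EVs compared to 2 Gy EVs gave -2.40 (standard error 0.30, adjusted p = 8.404e-06 in edgeR), lower in 6 of 6 samples. Here and for the other genes, this pooled test takes the samples of both days as separate, although some of them deviated together between the days. The background was large: among the 269 genes tested, 49.1% were called lower at day 7 and 41.3% at day 3 compared to sham EVs, and 52% were called lower with 9 Gy compared to 2 Gy EVs. Genes with every sample below every sample of the other group made up 49.1%, 43.9% and 36.1% in the same 3 comparisons, and the median log2 fold change over all tested genes was -0.45, -0.46 and -0.45. The size of the Cfb difference varied with the scaling and with replicate 3 of the 9 Gy groups. With total counts as the scaling it was -1.42 at day 7 (adjusted p = 0.00106 in edgeR) and -1.53 at day 3 (adjusted p = 0.00875), and with the other 3 scalings it lay between these and the values above. With counts under 20 set to 20 before scaling, a floor above all 3 raw counts of Cfb at day 3, the day 3 value was -0.96 (adjusted p = 0.0181 in edgeR). With replicate 3 left out of the group compared, the log2 fold change was -3.13 at day 7 and -3.45 at day 3. The day 3 value then rests on raw counts of 3 and 2, which were not compared with background. Without both samples whose day labels conflict, 9 Gy day 3 is left with replicate 3 alone, whose spread is assumed to be that of the other groups. The Cfb value was then -1.74 with an adjusted p of 0.0528 in edgeR, and with those samples counted in the day 7 group it was -1.74 with an adjusted p of 0.0494.

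C1qbp went the other way. Its normalized counts were 627, 719.7 and 578 with sham EVs, 619, 695 and 704 in the 2 Gy group of day 3 and 586, 631 and 718 in that of day 7. With 9 Gy EVs they were 786, 875 and 929 at day 3 and 819, 888 and 869.5 at day 7. All 6 values of the 9 Gy groups were above all 9 of the others. The 250 bases before its RefSeq start site on GRCm38.p6, the assembly of the C57BL/6J reference and not of the RAW 264.7 line, are shown because C1qbp was the complement gene that rose (chr11:70983027-70983276, minus strand, read toward the gene).

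C1qbp: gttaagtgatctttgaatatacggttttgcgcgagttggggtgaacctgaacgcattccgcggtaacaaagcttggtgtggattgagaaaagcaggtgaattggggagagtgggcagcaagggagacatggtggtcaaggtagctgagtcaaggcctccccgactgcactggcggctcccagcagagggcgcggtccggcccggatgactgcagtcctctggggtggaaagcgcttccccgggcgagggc

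This window was 59.2% G and C, against a median of 52.4% over all 32851 promoter windows of the same length. None of the letters searched for was found in it on either strand: a TATA box (TATAAA), a GC box (GGGCGG), a C/EBP-type site (TTGCGNAA), an interferon response core (GAAANNGAA) and a STAT site (TTCNNNGAA). These letters are absent from this window only, and other bases were not searched.

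Compared to sham EVs, C1qbp rose with 9 Gy day 7 EVs by 0.42 on the log2 scale (standard error 0.13, adjusted p = 0.0105 in edgeR, 1.34-fold) and with 9 Gy day 3 EVs by 0.43 (standard error 0.13, adjusted p = 0.0127 in edgeR). Compared to 2 Gy EVs the 9 Gy value was 0.39 (standard error 0.09, adjusted p = 0.00177 in edgeR), higher in 6 of 6 samples. With this scaling rises were the less common direction on the panel: 11.9% and 11.2% of tested genes were called higher at day 7 and day 3, and 15.6% in 9 Gy compared to 2 Gy EVs. Genes with every sample above the other group made up 12.6%, 11.9% and 7.81%. With the 14 housekeeping genes the C1qbp call was close to the threshold in the comparisons with sham EVs, while the 4 other scalings gave larger values, 0.62 to 1.53 at day 7 and 0.61 to 1.46 at day 3, all called (adjusted p of at most 0.000859). In a fit of only the groups compared the changes had the same size, with adjusted p-values of 0.0514 at day 7 and 0.0732 at day 3 in edgeR, and without sham replicate 3 the day 3 value was 0.36 (adjusted p = 0.0577). With counts under 20 set to 20 before scaling, C1qbp gave 0.12 at day 3 (adjusted p = 0.513) and 0.24 between 9 Gy and 2 Gy EVs (adjusted p = 0.0573 in edgeR), neither of them called.

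C3 encodes the central component, whose cleavage products coat targets for uptake. Its normalized counts were 81, 122 and 69.4 with sham EVs, 56.2, 88.6 and 105 in the 2 Gy group of day 3 and 74.4, 112 and 104 in that of day 7. The 9 Gy groups gave 58.2, 88.5 and 73 at day 3 and 62.2, 107 and 71.7 at day 7. The groups overlapped throughout, and replicate 2 was the highest sample with sham EVs, 2 Gy day 7 EVs and both kinds of 9 Gy EVs. The log2 fold change of C3 compared to sham EVs was -0.18 (standard error 0.28, adjusted p = 0.591 in edgeR) for 9 Gy day 7 EVs and -0.29 (standard error 0.35, adjusted p = 0.498) for 9 Gy day 3 EVs. Between 9 Gy and 2 Gy EVs it was -0.22 (standard error 0.22, adjusted p = 0.381). The C3 window before its start site is shown beside that of C1qbp because C3 is the gene against which the Cfb difference is set further on (chr17:57228137-57228386, minus strand, read toward the gene, with the match in capitals).

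C3: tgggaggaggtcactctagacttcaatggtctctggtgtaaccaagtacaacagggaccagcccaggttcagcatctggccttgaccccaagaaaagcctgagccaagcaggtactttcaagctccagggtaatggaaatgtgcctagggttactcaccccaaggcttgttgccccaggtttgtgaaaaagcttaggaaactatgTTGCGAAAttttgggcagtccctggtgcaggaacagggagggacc

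The capitals mark a C/EBP-type match (TTGCGAAA, 45 to 38 bases before the start), a pattern that 0.67% of the 32851 windows held on either strand. No other searched letters were in the C3 window. A match of this kind is a description and not a measured binding site. The promoter table has no entry for Cfb, C2 or C1qa.

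Cfp encodes properdin, which stabilizes the C3-cleaving enzyme of the alternative pathway and is made by myeloid cells. Its normalized counts were 462.5, 453 and 375 with sham EVs, 259.6, 379.5 and 430.3 in the 2 Gy group of day 3 and 367.5, 459 and 506 in that of day 7. With 9 Gy EVs they were 226, 251 and 543 at day 3 and 257, 291 and 557 at day 7. In each 9 Gy group replicate 3 was above every sham sample while replicates 1 and 2 were below every sham sample. The resulting log2 fold changes compared to sham EVs were -0.23 (standard error 0.33, adjusted p = 0.566 in edgeR) at day 7 and -0.31 (standard error 0.35, adjusted p = 0.462) at day 3. Between 9 Gy and 2 Gy EVs the value was -0.16 (standard error 0.24, adjusted p = 0.579). With replicate 3 left out of the 9 Gy group compared, the value was -0.65 at day 7 (adjusted p = 0.0802 in edgeR) and -0.85 at day 3 (adjusted p = 0.0546), and Cfp was not called in either. Leaving it out of both 9 Gy groups at once was added after seeing the data and gave -0.65, -0.85 and, between the doses, -0.64. These values are given with no test, since the samples left out were chosen for being the highest.

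**Figure D2:**
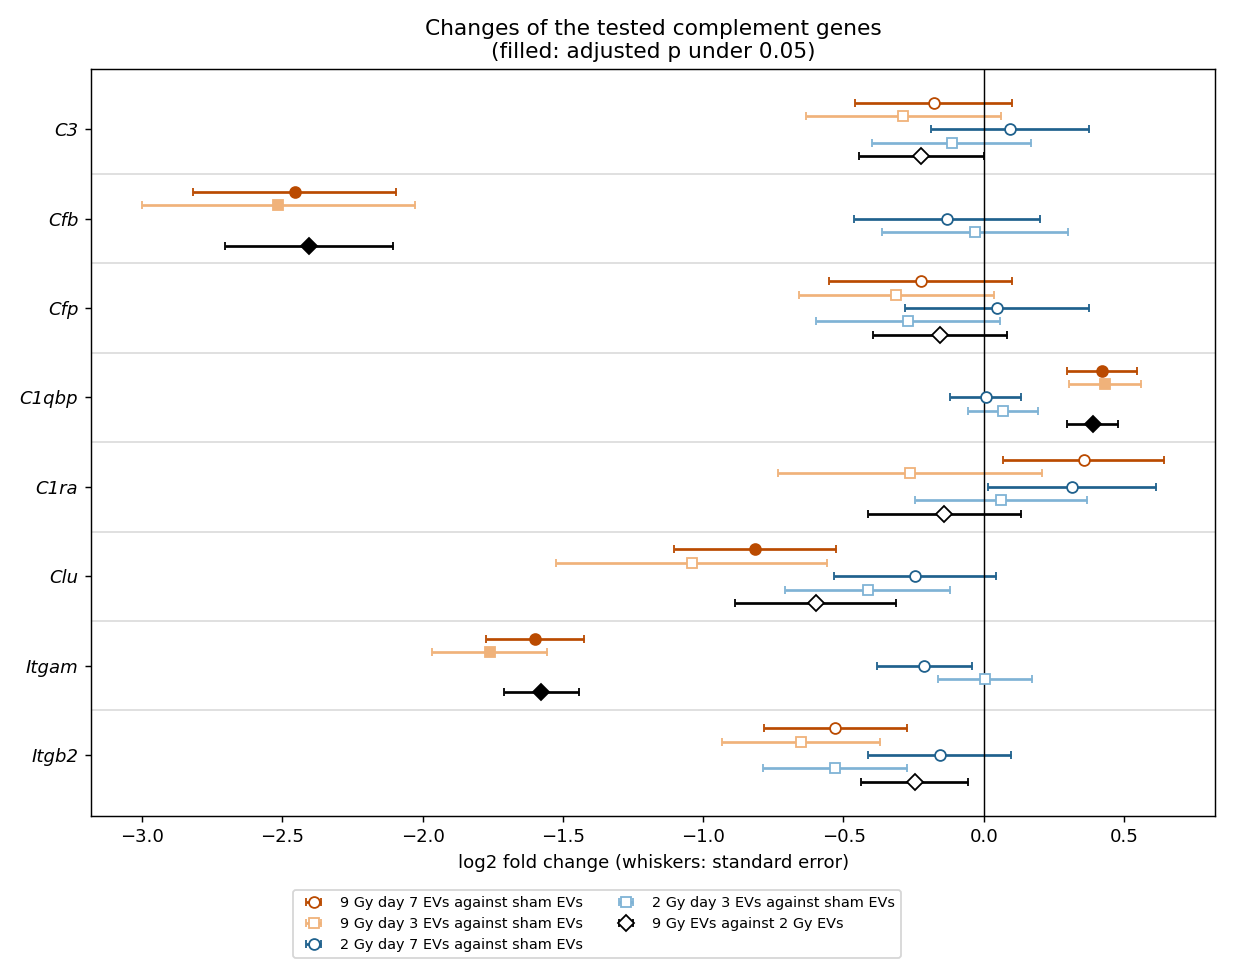
Log2 fold changes (horizontal axis) of the 4 tested complement genes and 4 further complement genes, with standard errors as whiskers, a color and symbol for each comparison, and filled symbols where the adjusted p was under 0.05. Cfb and Itgam lie far left in all 3 comparisons with 9 Gy EVs, C1qbp lies right of 0 in the same comparisons, and no symbol of the 2 Gy comparisons is filled.

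With 2 Gy EVs, none of the 4 tested genes was called compared to sham EVs at either day, and the groups overlapped for each. Their log2 fold changes ran from -0.27 (Cfp, standard error 0.33) to 0.07 (C1qbp, standard error 0.13) at day 3 and from -0.13 (Cfb, standard error 0.33) to 0.09 (C3, standard error 0.28) at day 7. Across the panel edgeR called 0% of tested genes in either comparison, with 7 and 1 genes at an unadjusted p under 0.05, and 13% and 4.09% of genes did not overlap between the groups. The difference of Cfb and C1qbp between the doses thus rests on the test between 9 Gy and 2 Gy EVs given above.

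Between days 7 and 3, no complement gene was called at either dose, and edgeR called 0% of all tested genes (6 and 4 genes at an unadjusted p under 0.05 for 9 Gy and 2 Gy). With 9 Gy EVs the log2 difference, day 7 compared to day 3, was between -0.01 (C1qbp, standard error 0.13) and 0.11 (C3, standard error 0.34). For Cfb it was 0.06 with a standard error of 0.54. With counts under 20 set to 20 before scaling, Cfb was called lower at day 7 than at day 3 (-1.44, adjusted p = 0.00579 in edgeR), where 99 of the 269 genes were called. That floor raised the raw Cfb counts of day 3 (3, 2 and 12) and none of day 7 (30, 30 and 89). This call therefore cannot show a difference between the days. With 2 Gy EVs the differences were between -0.10 (Cfb) and 0.32 (Cfp, standard error 0.33), and groups that did not overlap made up 6.32% of genes for 9 Gy and 7.06% for 2 Gy, none of them a complement gene tested here. With the replicate number as a block in a fit of only the groups compared, Cfp was called higher at day 7 than at day 3 after 2 Gy, by 0.33 (adjusted p = 0.0382 in edgeR), in 3 of 3 pairs of same-numbered samples, where that fit called 27 of the 269 genes. Over the 4 genes and both doses, 3 of 8 sets of pairs had one sign. Cfp was also higher at day 7 in 3 of 3 pairs with 9 Gy EVs (block fit 0.13, adjusted p = 0.789) and Cfb was lower in 3 of 3 pairs with 2 Gy EVs (-0.10, adjusted p = 0.524), and neither was called. With the block in a fit of all groups the adjusted p of Cfp with 2 Gy EVs was 0.977.

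A ratio of 2 genes within one sample does not depend on how samples are scaled to each other, although its size does not compare their mRNA levels, since each probe has its own efficiency. The log2 ratio of C3 to Cfb counts was -0.97, -0.20 and -1.46 with sham EVs, -1.67, -0.68 and -0.59 in the 2 Gy group of day 3 and -1.17, -0.29 and -0.45 in that of day 7. It was 1.42, 3.17 and 0.58 for 9 Gy at day 3 and 1.78, 2.50 and 0.48 at day 7. C3 counts thus exceeded Cfb counts in all 6 samples with 9 Gy EVs and in none of the other 9. Cfb was among the 36.1% of tested genes with every 9 Gy sample below every 2 Gy sample. The share of gene pairs that separate in this way was not computed. The mean log2 ratio of C3 to Cfb was 1.66 ± 1.06 (SD, n = 6) with 9 Gy EVs and -0.81 ± 0.52 (SD, n = 6) with 2 Gy EVs, a difference of 2.46 (two-sided exact permutation test, p = 0.00216, the smallest that 6 samples against 6 allow). That test takes the 6 samples of a dose as separate, but samples with the same number deviated together between the days, as did some with different numbers. With same-numbered samples averaged over the days, added after seeing the data, the difference was 2.46 with 3 values against 3 (exact permutation p = 0.1, the smallest possible). Within day 7 alone the difference was 2.22 and within day 3 alone 2.70, each with the smallest p that 3 against 3 allow (exact permutation p = 0.1).

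The other 5 ratios were chosen after the values were seen and are given as descriptions, with no test. Cfb to Cfp was lower in every 9 Gy sample than in every 2 Gy sample, by 2.44 on the log2 scale, from -1.35 ± 0.47 to -3.79 ± 0.49 (SD, n = 6 each). C1qbp to Cfb was higher in every 9 Gy sample, by 3.08. C1qbp to C3 differed by 0.61 and C1qbp to Cfp by 0.64, with overlapping groups. C3 to Cfp differed by 0.03, from -2.16 ± 0.12 to -2.13 ± 0.66 (SD, n = 6 each). Its spread was wider with 9 Gy EVs, where replicate 3 gave -2.90 and -2.96 and the other 4 samples gave -2.04 to -1.44.

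**Figure D3:**
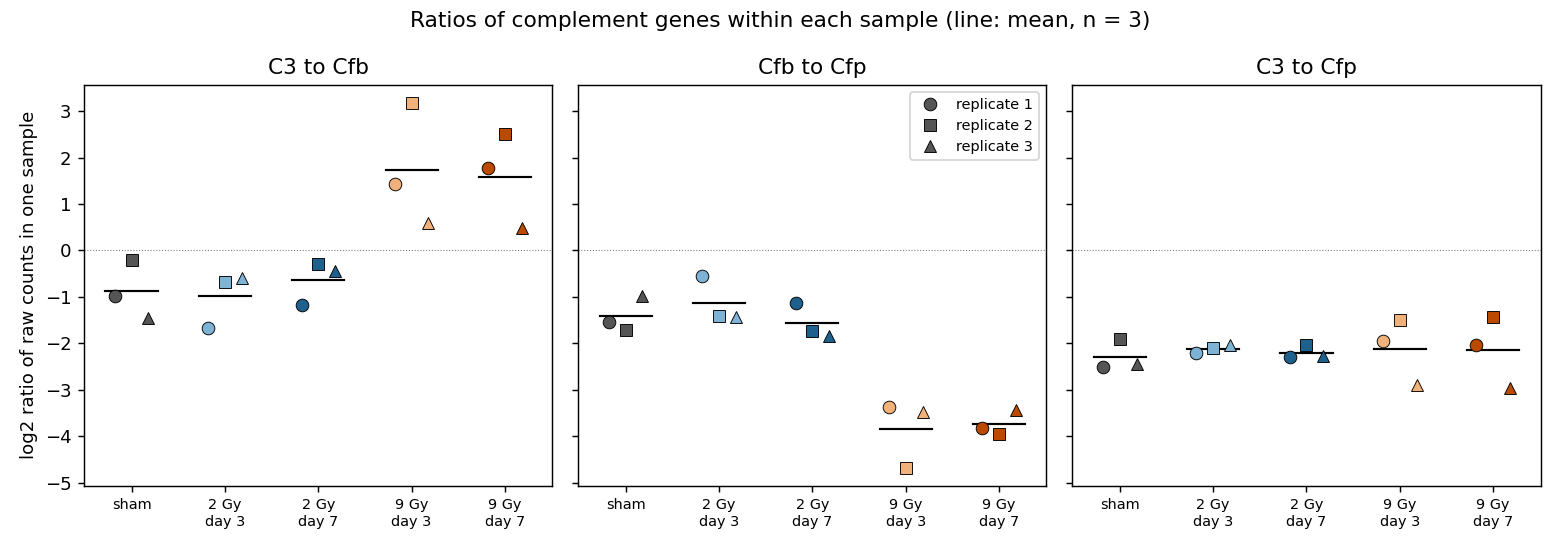
Log2 ratios of raw counts within each sample (vertical axis) for C3 to Cfb, Cfb to Cfp and C3 to Cfp in the 5 EV groups, with symbols for replicates and lines for the mean of 3 samples. The 6 values of the 9 Gy groups lie above 0 for C3 to Cfb and below all others for Cfb to Cfp, and overlap the other groups for C3 to Cfp.

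How the samples were scaled changed the direction of C3 and Cfp but not of Cfb or C1qbp. Between 9 Gy and 2 Gy EVs, the log2 value of C3 was -0.22 with the 14 housekeeping genes, -0.03 with the housekeeping genes of at least 100 counts, 0.23 with the median of ratios, 0.25 with TMM and 0.92 with total counts. The value of Cfp was -0.16, 0.03, 0.29, 0.31 and 0.94 in the same order. Both were called, as higher, only with total counts (adjusted p = 0.00179 and 0.00047 in edgeR). The median of all tested genes moved with the scaling too, from -0.45 to -0.25, 0.01, 0.02 and 0.69, and the lower share of all calls from 76.9% to 65.5%, 48.5%, 47.3% and 17.6%. Under every scaling Cfb stayed lower, from -2.40 to -1.32, and C1qbp higher, from 0.39 to 1.53, with both called.

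**Figure D4:**
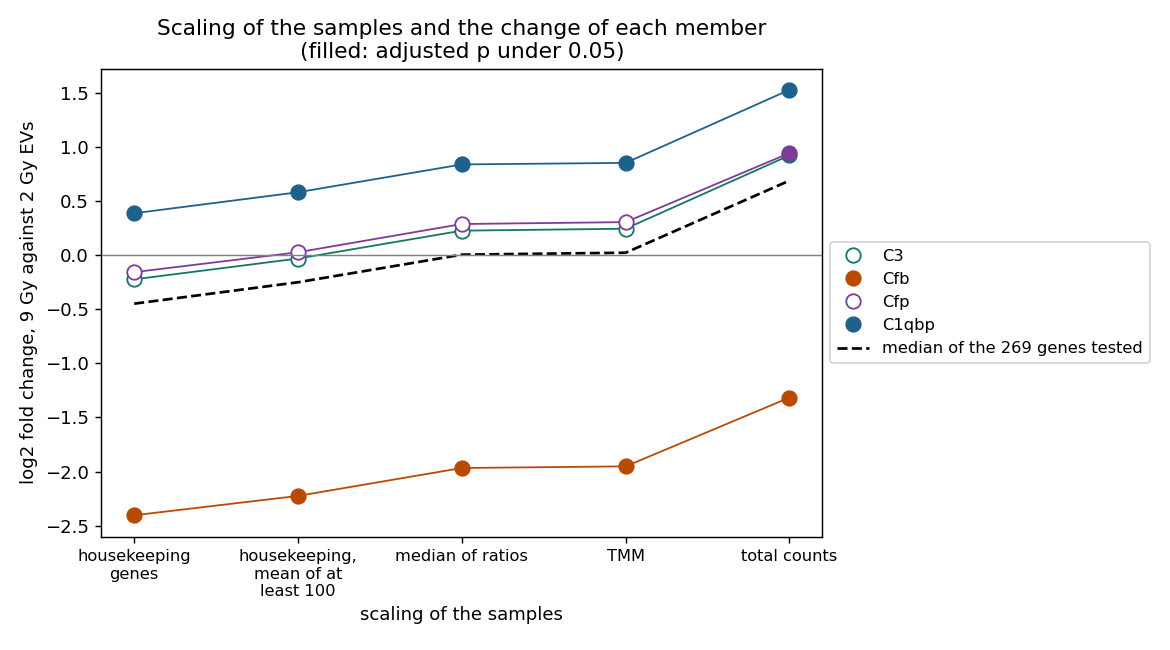
Log2 fold change of each tested complement gene between 9 Gy and 2 Gy EVs (vertical axis) under 5 scalings of the samples (horizontal axis), with filled symbols where the adjusted p was under 0.05 and the median of the 269 tested genes as a dashed line. Cfb stays below 0 and C1qbp above 0 throughout, while C3 and Cfp pass from -0.22 and -0.16 to 0.92 and 0.94.

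C1qa and C1qb encode chains of C1q, the recognition molecule of the classical pathway, and C2 encodes a protease of that pathway. All 3 were near the lowest counts in every group, with no sample over 14 counts, and none entered the main test. C1qa gave raw counts of 7, 14 and 12 with sham EVs, 6, 10 and 6 in the 2 Gy group of day 3 and 6, 6 and 11 in that of day 7. The 9 Gy groups gave 1, 3 and 1 at day 3 and 2, 4 and 6 at day 7. C1qb gave 6, 11 and 7 with sham EVs, and 2 to 12 counts in the other groups except 9 Gy day 3, where all 3 samples were at 1. C2 gave 5, 2 and 11 with sham EVs, 5 to 13 counts in the 2 Gy groups and 9 Gy day 7, and 1 or 2 counts in 9 Gy day 3. Counts of 1 there are the lowest value in the table and carry no order.

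Without the filter on low counts, C1qa was called lower with 9 Gy day 7 EVs than with sham EVs, with a log2 difference of -2.11 (standard error 0.40, adjusted p = 0.000556 in edgeR). Among the 292 genes under the filter, 28.1% were called lower in that comparison, and the median log2 difference of the 292 was -0.70. At day 3 the C1qa value was -0.34 (standard error 0.61, adjusted p = 0.787). C1qb and C2 were not called in any comparison without the filter. Background counts of the assay's negative control probes were not analysed here, so whether these 3 genes were above background was not tested.

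**Figure D5:**
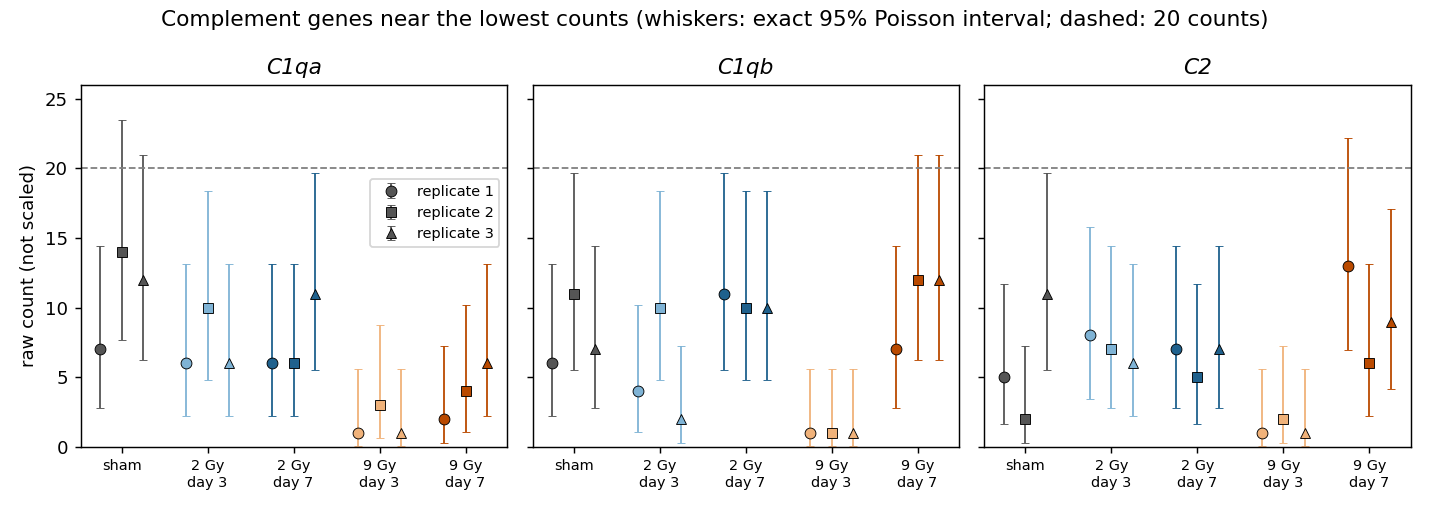
Raw counts (vertical axis, not scaled) of C1qa, C1qb and C2 in the 5 EV groups, with symbols for replicates, exact 95% Poisson intervals as whiskers and a dashed line at 20 counts. All samples lie below the line, and those of the 9 Gy day 3 group, which had the lowest total counts, are at 1 to 3.

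Of 44 further complement genes listed, 25 were on the panel and 5 reached a mean of 20 counts, of which C1ra, Clu, Itgam and Itgb2 are described here. Itgam encodes the alpha chain of complement receptor 3, which takes up targets coated with a C3 fragment, and it fell with 9 Gy EVs under the housekeeping scaling. Its mean normalized count was 301 ± 59.7 with sham EVs, 302 ± 49.1 and 259.7 ± 30.3 with 2 Gy day 3 and day 7 EVs, and 88.9 ± 8.85 and 99.2 ± 6.52 with 9 Gy day 3 and day 7 EVs (SD, n = 3 each). The log2 fold change compared to sham EVs was -1.60 (standard error 0.17, adjusted p = 4.609e-06 in edgeR) at day 7 and -1.76 (standard error 0.20, adjusted p = 9.595e-06) at day 3, and compared to 2 Gy EVs it was -1.58 (standard error 0.13, adjusted p = 1.867e-07). Itgam is also one of the 10 macrophage markers. Itgb2, which encodes the beta chain of the same receptor, gave -0.53 at day 7 (adjusted p = 0.0861) and -0.65 at day 3 (adjusted p = 0.0654). With 2 Gy day 3 EVs its value was of the same size, -0.53 (standard error 0.26, adjusted p = 0.998 in edgeR), with all 3 samples below all sham samples, and between 9 Gy and 2 Gy EVs it was -0.25 (adjusted p = 0.253). Clu encodes clusterin, an inhibitor of the pore-forming complex, and was called lower at day 7 (-0.82, standard error 0.29, adjusted p = 0.0240) but gave -1.04 at day 3 with an adjusted p of 0.0848 from 8 counts in all. C1ra, a protease that associates with C1q, was not called in any comparison with the housekeeping scaling. In the 2 Gy and the day comparisons none of these 4 was called. The call of Itgam was lost under only 1 scaling and comparison, total counts at day 7 (-0.49, adjusted p = 0.0559), and its value stayed below 0 under all 5. The call of Clu at day 7 held with the 14 housekeeping genes alone, and its value ran up to 0.28 with total counts. C1ra was called higher at day 7 with TMM (0.84, adjusted p = 0.0228 in edgeR), with the median of ratios (0.85) and with total counts (1.45), and Itgb2 was called higher there with total counts (0.53, adjusted p = 0.0375). Between 9 Gy and 2 Gy EVs total counts also called Itgb2 (0.87, adjusted p = 0.000165) and C1ra (0.98, adjusted p = 0.00491) higher.

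Among tested genes other than housekeeping genes, those whose log2 normalized counts followed Cfb most closely over the 15 samples were Il1a (Pearson r = 0.983), Il1rn (0.976) and Tnfrsf1b (0.974), which encode interleukin-1 alpha, the interleukin-1 receptor antagonist and a TNF receptor. Within the 6 samples with 9 Gy EVs the values were 0.95, 0.883 and 0.814, and within the other 9 samples -0.752, 0.742 and 0.771. The agreement of Cfb with Il1a outside the 9 Gy groups was thus of opposite sign. Cfp followed Nos2, the inducible nitric oxide synthase (0.867), Itgb2 (0.864) and Ccl2, a monocyte chemokine (0.811), and within the 9 Gy samples the values were 0.958, 0.894 and 0.939, against 0.609, 0.904 and 0.199 within the other 9. C1qbp was closest to Ltb (0.906), Icam1 (0.903) and Mapkapk2 (0.892), which were all below 0 within the 9 Gy samples, at -0.573, -0.464 and -0.362, and at 0.829, 0.856 and 0.779 within the other 9. C3 was closest to Il27 (0.843), Blnk (0.816) and Stat5b (0.791), with 0.46, 0.403 and 0.597 within the 9 Gy samples and 0.957, 0.93 and 0.903 within the other 9. Among the 4 genes themselves the correlation was -0.82 between Cfb and C1qbp, 0.543 between Cfb and Cfp, 0.444 between C3 and Cfp and 0.184 between C3 and Cfb. These are descriptions over samples that share groups, scaling and depth.

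In the RefSeq gene table for GRCm38.p6, C2 and Cfb lie next to each other with 0 protein-coding genes between them, and C1qa and C1qb have 1 between them. The neighbors C2 and Cfb could not be set against each other by ratio, because C2 did not reach 20 counts in any sample.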

How the data were processed

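Macrophage mRNA was counted on the nanoString nCounter Mouse Immunology panel, an assay in which bar-coded probes are hybridized and counted one by one with no amplification. The authors deposited raw counts as whole numbers, before normalization in nSolver. Control probes were not analysed here, and 0 columns were left unused. From these counts a housekeeping scaling was computed from 14 genes, and a gene was tested if its mean reached 20 counts. edgeR 4.0.16 under R 4.3.3 fitted all 15 samples in one quasi-likelihood model (glmQLFit, prior count 0.125) with Benjamini-Hochberg adjustment over the 269 genes tested (threshold 0.05). The standard error is the absolute log2 fold change over the square root of the F statistic. Exact permutation tests compared the ratio of C3 to Cfb, and the other planned ratios of C2 to Cfb and C1qa to C1qb were not run because these genes had a mean under 20. The procedure was tested on simulated data.

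The members and gene lists were chosen with earlier results of these data known. Named genes are the 7 members, the listed complement genes that were tested, and for each tested member the 3 genes with the highest correlation. Marco, Cd163, Cd3e, Cd4, Cd8a and Lck were named from marker lists, and 1 of the tested complement genes is not reported here. Samples with the same replicate number deviated together between the 2 Gy groups (r = 0.392 to 0.782) and between the 9 Gy groups (0.350 to 0.730), from the values alone, and not all over 0.1 between other groups. Samples of different number gave -0.698 to 0.615 between the 2 Gy groups and -0.684 to 0.439 between the 9 Gy groups. Some of these thus matched or exceeded same-numbered samples, and the values do not show that the numbers mark pairs. Alternatives covered the scaling, the filter, a count floor, the prior count, the samples in the fit, the replicate block, the day labels, each replicate left out, and DESeq2 1.42.0. Promoter windows came from RefSeq (GRCm38.p6). All 7 members matched the gene table by symbol and 4 had a promoter entry. The build behind the panel's probes is not given in the sources used here.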

Additional observations from a re-analysis of the deposited data

Results flagged for a closer look

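Cfb and C1qbp differed between cells given 9 Gy EVs and cells given 2 Gy EVs, by the test of that difference. The log2 difference was -2.40 for Cfb (adjusted p = 8.404e-06 in edgeR) and 0.39 for C1qbp (adjusted p = 0.00177). That test takes the samples of both days as separate, although some of them deviated together between the days. The 9 Gy samples also differed in the housekeeping mean per 100000 counts, 141 to 181 against 71.4 to 80 in the others. The part of this in these results was not tested. Every 9 Gy sample was below every 2 Gy sample for Cfb and above every 2 Gy sample for C1qbp. Of the 269 genes tested, 52% were called lower and 15.6% higher between the doses, and 36.1% had every 9 Gy sample below and 7.81% every 9 Gy sample above the 2 Gy samples. With counts under 20 set to 20, the C1qbp difference was 0.24 and was not called (adjusted p = 0.0573 in edgeR).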

How the results depend on the processing

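Of 609 values of single complement genes under alternative settings, 592 kept their direction where called and their side of the threshold, and 62 of the values uncalled in both settings changed sign. With total counts as the scaling, 4 members were called for 9 Gy day 7 compared to sham EVs and 4 for 9 Gy compared to 2 Gy EVs, against 2 in the main result, and C3 (0.94 and 0.92) and Cfp (0.83 and 0.94) were then higher. That scaling called 174 and 204 of the 269 genes in these comparisons, 17.8% and 17.6% of them lower, against 164 and 182 with 80.5% and 76.9% lower in the main result. Fitting only the groups compared, with or without the replicate block, left 1 member called (Cfb) at each 9 Gy day, with 143 to 153 genes of the panel called at day 7 and 114 to 118 at day 3, against 164 and 141. With counts under 20 set to 20, 1 member was called at 9 Gy day 3 and 1 in 9 Gy compared to 2 Gy EVs (Cfb in both, with C1qbp at 0.12 and 0.24), and Cfb became lower at day 7 than at day 3 with 9 Gy EVs (-1.44, 1 member called against 0). The panel calls with this floor were 184 of 269 genes at 9 Gy day 3 (60.3% lower, against 141 and 78.7%), 186 between the doses (66.1% lower) and 99 between the 9 Gy days, against 0. This floor is worth more normalized counts in a sample of low depth. It also cut the day 3 value of Cfb to -0.96. Without the samples of conflicting day labels, which leaves 1 sample in the 9 Gy day 3 group, 1 member was called there (C1qbp, with Cfb at an adjusted p of 0.0528), and placing them at day 7 left 2 called (Cfb at 0.0494), while calls over all 269 genes fell from 141 to 78 and 74; leaving out single replicates gave 1 to 2 members at 9 Gy day 3 (113 to 141 genes of the panel), 2 at day 7 (146 to 171) and 2 in 9 Gy compared to 2 Gy EVs (165 to 182). After 2 Gy, day 7 compared to day 3, the replicate block with only the groups compared called 1 member (Cfp). With the block in a fit of all groups, C1qbp (0.42) and Cfb (-2.51) remained called at 9 Gy day 7, and no call of a member changed in any comparison. The ratio of C3 to Cfb differed by 2.22 at day 7 alone and 2.70 at day 3 alone, and by 2.16 to 2.70 with single samples left out; averaging same-numbered samples over the days, added after seeing the data, gave 2.46 with an exact permutation p of 0.1. The cause of these shifts was not tested. Depth limited the 9 Gy day 3 group most, where Cfb rests on 17 counts in all.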
